A study of Mus musculus with 30 samples.

Results

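The comparison of day 6 with day 1 in wild type (WT) skin rested on 6 of the 30 arrays of the series, 3 from WT mice killed 1 day after the last of 3 applications of the phorbol ester TPA and 3 from WT mice killed 6 days after it. Members were chosen by genotype and day as the labels give them, and each array held the RNA of whole back skin from 1 mouse. The mice of every group were female, 129–C57BL/6, 8 to 12 weeks old and shaved, TPA was given at 50 μM with 24 h between applications, and the day 0 mice received acetone in its place. The matching arrays of mice that lack D6 (Ccbp2, now Ackr2), a receptor that takes up and degrades inflammatory CC chemokines without signaling, served for comparison, as did days 0, 2 and 4. Whole skin mixes epidermis, hair follicles, dermis, fat, muscle and immune cells, so that fewer cells of a type and less RNA per cell cannot be told apart.

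TPA activates protein kinase C in keratinocytes, which then proliferate, make stress keratins and cornified envelope proteins and release chemokines that draw in neutrophils and monocytes. Skin cells also carry a circadian clock, in which the transcription factors Arntl (Bmal1) and Clock drive the Per and Cry genes, whose products shut off their own transcription, while Nr1d1 (Rev-erbα) represses Arntl and peaks in another phase of the day than Per and Cry. Hair follicles alternate between rest and growth, and the shaft and root sheath keratins are made during growth. The question that the comparison answers is which genes of WT skin changed between the first and the last day sampled after TPA.

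Few genes differed between the days. Of 36029 probe sets tested with limma, 42 (0.117%) passed an adjusted p of 0.05, of which 13 (0.0361%) rose from day 1 to day 6 and 29 (0.0805%) fell. They named 35 genes, and 2 of the 42 carried no gene name. In 5 probe sets (0.0139%) the difference was also more than 3-fold, namely Nr1d1 and Cdkl4, which rose, and Per2 and 2 probe sets of Fmo2, which fell. For scale, in the same fit 8660 probe sets (24.0%) differed between WT day 0 and day 1, 432 (1.2%) between day 2 and day 1 and 8158 (22.6%) between day 4 and day 1, all of these comparisons sharing the day 1 arrays. The arrays of days 1 and 6 correlated with Pearson's r of 0.984 to 0.992 across probe sets, within or just below the 0.988 to 0.992 found among arrays of the same day, whereas day 1 and day 0 arrays correlated with 0.961 to 0.973. An unadjusted p under 0.05 was reached by 2491 probe sets (6.91%), and the 6 values of a probe set did not overlap between the days in 4580 (12.7%), the 42 included. The count was 6 when the 6 arrays were fitted alone and 17 to 35 when 1 array was left out, and of the 42 only Cirbp, Cry1, Nr1d1 and Per2 passed in every alternative fit with limma.

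The tissue label was borne out by the epidermal genes, whose median level was 11.65 on the log2 scale on day 1 and 11.20 on day 6. All values below are log2 intensities unless a fold is named, and all adjusted p values are from limma with Benjamini-Hochberg adjustment over all 36029 probe sets. The D6 gene itself did not differ between the days in WT skin, with differences of -0.03, -0.01 and 0.14 in its 3 probe sets (adjusted p of 0.97 or more in each).

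Genes of the circadian clock led the comparison. On the list of 18 clock genes, all tested, 4 passed on their brightest probe set, against 0.117% of all probe sets. Nr1d1 passed as a rise and Per3, Cry1 and Tef as falls. Per2 passed on another probe set, so 5 clock genes stood among the 35 genes that passed. The median of the 18 differences was -0.27, against 0.00 over all probe sets. Sequence upstream of those clock genes that fell and for which RefSeq gave a promoter is printed here because the members moved together. The window runs from 250 bases before to 50 bases after the start of the transcript, 5′ to 3′ on the strand of the gene, in build GRCm38.p6. Capitals mark CACGTG, the E-box letters that Arntl and Clock bind, and TTATGTAA, D-box letters that Tef and its relatives bind.
Cry1, chr10:85185005-85185304, minus strand: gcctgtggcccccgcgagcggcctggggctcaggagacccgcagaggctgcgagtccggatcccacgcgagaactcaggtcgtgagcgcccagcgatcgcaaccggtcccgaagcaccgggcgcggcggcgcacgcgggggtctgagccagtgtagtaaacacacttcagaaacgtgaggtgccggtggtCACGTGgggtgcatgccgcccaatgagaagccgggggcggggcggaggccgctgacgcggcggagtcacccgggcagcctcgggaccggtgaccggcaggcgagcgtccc
Per3, chr4:151044616-151044915, minus strand: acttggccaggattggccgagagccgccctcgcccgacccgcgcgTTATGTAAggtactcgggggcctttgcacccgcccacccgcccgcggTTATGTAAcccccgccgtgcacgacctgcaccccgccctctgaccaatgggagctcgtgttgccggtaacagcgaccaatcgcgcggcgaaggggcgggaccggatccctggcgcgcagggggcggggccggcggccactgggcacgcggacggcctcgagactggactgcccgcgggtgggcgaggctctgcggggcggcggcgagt
Tef, first promoter, chr15:81802423-81802722, plus strand: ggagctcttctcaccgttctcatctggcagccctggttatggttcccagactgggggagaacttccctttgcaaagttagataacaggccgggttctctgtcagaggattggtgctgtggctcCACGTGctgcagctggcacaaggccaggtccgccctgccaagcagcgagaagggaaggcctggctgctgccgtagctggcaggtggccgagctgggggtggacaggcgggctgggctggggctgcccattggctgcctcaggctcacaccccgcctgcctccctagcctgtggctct
Tef, second promoter, chr15:81811164-81811463, plus strand: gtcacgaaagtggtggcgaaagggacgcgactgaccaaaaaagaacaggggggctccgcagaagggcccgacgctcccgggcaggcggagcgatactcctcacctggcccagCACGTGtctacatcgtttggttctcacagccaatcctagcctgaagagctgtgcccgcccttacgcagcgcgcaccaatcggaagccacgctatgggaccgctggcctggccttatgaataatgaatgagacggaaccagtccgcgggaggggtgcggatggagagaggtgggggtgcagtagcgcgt
Cry1 and both Tef windows held CACGTG, and Per3 held TTATGTAA at 2 places. The window of Nr1d1, the clock gene that rose, held neither. Sequence outside these short windows was not searched, so a window without the letters does not show that a gene lacks them. Searched on both strands, CACGTG was present in 4 of the 19 genes with a promoter that fell (Cry1, Tef, Hsph1 and Lonrf3; 21.1%), in 0 of the 9 that rose and in 8.09% of the 27025 genes of the promoter table. TTATGTAA was present in 1 gene that fell (5.26%), 0 that rose and 1.11% of all, and the related letters TTATGCAA in 0, 0 and 0.888%. These motifs were chosen after the values were seen, and the counts are a description.

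Per2, a repressor of the clock whose transcript rises and falls each day, showed the largest fall of all probe sets. Its probe set with the largest difference read 6.48, 6.71 and 6.10 in the 3 day 1 mice and 3.90, 3.91 and 4.00 in the day 6 mice. Every day 6 value stood far below the lowest day 1 value, and the difference was -2.49 (SE 0.30, adjusted p = 0.000143), a 5.61-fold fall. The other tested probe sets of Per2, at 5.30 and 5.22 on average on day 1, differed by -0.61 and -0.56, did not overlap between the days and did not pass (adjusted p = 0.20 for each). In acetone-treated WT skin the first probe set averaged 4.17 ± 0.21 (SD, n = 3), close to the day 6 mean of 3.94 ± 0.05, and on days 2 and 4 it averaged 4.94 ± 0.80 and 4.97 ± 0.59.

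Cry1, the partner of the Per proteins in repression, fell from 8.38, 8.23 and 8.35 on day 1 to 7.11, 6.94 and 7.15 on day 6. The arrays of a day lay close together, and the difference of -1.25 (SE 0.11, adjusted p = 1.72e-06) had the smallest adjusted p of all probe sets. Cry1 averaged 6.62 on day 0, 6.90 on day 2 and 7.37 on day 4, so day 1 was again the day that stood out. Per3 fell from 7.61, 8.13 and 7.37 to 6.18, 6.43 and 6.45 on its brightest probe set, by -1.35 (SE 0.21, adjusted p = 0.00473). On days 0, 2 and 4 that probe set averaged 6.88, 7.52 and 6.91, day 2 lying close to the day 1 mean of 7.70. All 6 tested probe sets of Per3 were lower on day 6, the others without passing. Per1 and Cry2 differed by -0.37 and -0.19 (adjusted p = 0.83 and 0.91).

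Nr1d1, a nuclear receptor that represses Arntl, moved the other way. It read 5.98, 5.97 and 5.97 on day 1 and 7.92, 7.58 and 7.90 on day 6, a rise of 1.82 (SE 0.19, adjusted p = 2.71e-05) or 3.54-fold. The 3 day 1 mice were nearly equal, and the means of days 0, 2 and 4 were 8.44, 8.25 and 7.74, so day 1 alone was low. Its paralog Nr1d2 differed by -0.01 on its brightest probe set (adjusted p = 1.00).

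Among the transcription factors that bind D-boxes and carry the clock signal to other genes, Tef fell on 2 of 3 probe sets, from 6.94, 7.23 and 7.15 to 6.36, 6.29 and 5.98 on 1 of them (-0.90, SE 0.16, adjusted p = 0.0133) and by -0.75 (SE 0.14, adjusted p = 0.0205) on the brightest. The third differed by -0.60 (adjusted p = 0.82). Hlf and Dbp, of the same family, differed by -0.86 and -0.36 (adjusted p = 0.41 and 0.89). Of the activators, Arntl and Clock differed by 0.21 and 0.04 (adjusted p = 0.87 and 0.98), and Npas2, which can stand in for Clock, differed by 1.09 on 1 of its probe sets with no overlap between the days (adjusted p = 0.20). Bhlhe40 and Nfil3 differed by -0.03 and -0.35 and did not pass.

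**Figure D1:**
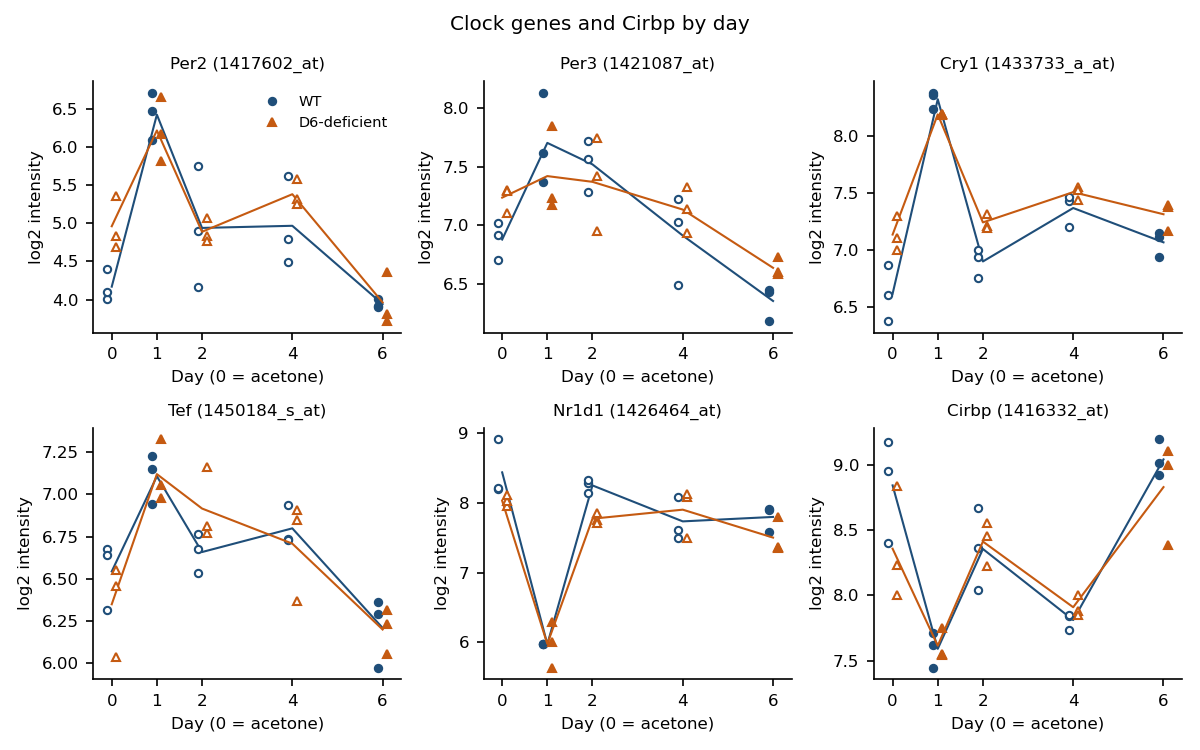
Log2 intensity (y axis) by day (x axis) of 5 clock genes and Cirbp. Points are single mice, filled on days 1 and 6, and lines join the group means of WT (circles) and D6-deficient mice (triangles). Day 1 stood highest or lowest of the WT means in all 6 panels, Cirbp on day 4 lying only 0.22 above it. For Per3 the WT day 2 mean of 7.52 also lay close to the day 1 mean of 7.70.

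The hour at which skin was taken is not given in the sources used here, and the part that the hour of harvest plays in these differences was not tested. The D6-deficient arrays came from other mice, but their tests share the fit and its estimate of spread with those of WT skin. There Per2 fell by -2.26 (adjusted p = 0.000981), Cry1 by -0.87 (adjusted p = 0.000547) and Tef by -0.92 (adjusted p = 0.0106), and Nr1d1 rose by 1.52 (adjusted p = 0.000547). Per3 differed by -0.78 in the same direction (adjusted p = 0.11).

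Some genes known to respond to temperature also passed, in both directions. The lists of heat shock chaperones and of RNA-binding proteins were drawn up after the values were seen, so their counts are descriptive. Cirbp, an RNA-binding protein induced by mild cold, rose from 7.71, 7.62 and 7.45 on day 1 to 8.92, 9.01 and 9.19 on day 6, by 1.45 (SE 0.20, adjusted p = 0.00115). Its day 0 mean was 8.84 and its day 4 mean 7.81. Hnrpdl, another RNA-binding protein, rose by 0.64 on 1 of 7 probe sets (adjusted p = 0.0301). Rbm3, like Cirbp a cold-inducible protein, was split, since 1 probe set fell by -1.36 (SE 0.18, adjusted p = 0.000403) and the far brighter other one differed by 0.31 (adjusted p = 0.51). The median of the 20 differences of this list was 0.22.

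Of the 23 heat shock chaperones tested, 3 fell, against 0.0805% of all probe sets, and most others were lower on day 6 without passing. Hsph1, an exchange factor for Hsp70, fell from 10.33, 10.01 and 10.45 to 9.24, 9.17 and 9.07 on its brighter probe set (-1.10, SE 0.18, adjusted p = 0.00473) and by -1.09 on the other. Chordc1, a partner of Hsp90, fell by -0.66 (SE 0.10, adjusted p = 0.00354), and Hspa1a, the inducible Hsp70, fell by -0.77 (SE 0.14, adjusted p = 0.0192). In all, 23 members were tested, 0 rose and 19 differences were below 0, with a median of -0.17. Hspa8, Hspa4l and Dnaja1 differed by -0.32, -0.58 and -0.41 with no overlap between the days and adjusted p of 0.13 to 0.20. Hsf1, the factor that turns these genes on, differed by -0.14 (adjusted p = 0.89). The first of 2 promoter windows of Hsph1 is printed because it held both CACGTG and the 3-part heat shock element that Hsf1 binds, both in capitals. The element, written GAANNTTCNNGAA, lay on the opposite strand, so the capitals show its reverse complement. In this window CACGTG began at base 253 and the element at base 287, both past the start of the transcript.
Hsph1, chr5:149636287-149636586, minus strand: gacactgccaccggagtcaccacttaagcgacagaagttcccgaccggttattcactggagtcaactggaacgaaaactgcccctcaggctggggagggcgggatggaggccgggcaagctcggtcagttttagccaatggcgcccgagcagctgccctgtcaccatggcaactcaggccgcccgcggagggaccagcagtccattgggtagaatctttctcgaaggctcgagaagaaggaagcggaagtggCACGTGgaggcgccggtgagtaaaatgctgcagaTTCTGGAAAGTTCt
The heat shock element was found in Chordc1 and Hsph1 among the 19 genes with a promoter that fell (10.5%), in 0 of 9 that rose and in 0.662% of all genes of the table. Of motifs listed earlier, CCAAT was held by 57.9% of the genes that fell, 33.3% of those that rose and 41.1% of all, TGACTCA by 10.5%, 0 and 5.95%, and TTTGAA by 10.5%, 22.2% and 20.2%.

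The remaining genes that passed had varied roles. Fmo2, a flavin monooxygenase that oxidizes foreign amines and thiols, fell on 3 of 4 probe sets, from 8.13, 8.39 and 8.16 to 6.83, 5.72 and 6.71 on the one with the largest difference (-1.81, SE 0.29, adjusted p = 0.00473), and its day 1 mean of 8.23 was close to that of acetone-treated skin (8.28). On days 2, 4 and 6 this Fmo2 probe set averaged 7.01, 5.23 and 6.42, so its lowest mean was on day 4. Lonrf3 shared that course, with 6.97, 7.33, 6.05, 5.43 and 6.25 on days 0, 1, 2, 4 and 6 (-1.09, adjusted p = 0.0347). Tsc22d3 (Gilz), which is induced by glucocorticoids, fell from 9.80, 9.89 and 9.998 to 8.96, 8.65 and 8.52 on 1 probe set (-1.19, adjusted p = 0.0145). On its brightest probe set it differed by -1.02 (adjusted p = 0.075). Of 20 glucocorticoid-induced genes, a list also drawn up after the values were seen, 0 passed on their brightest probe set. Dusp5 and Mxd1, a phosphatase of the ERK pathway and an antagonist of Myc, had their highest means on day 4. Dusp5 averaged 7.08, 8.35, 8.50, 8.90 and 7.48 on days 0, 1, 2, 4 and 6, and fell between day 1 and day 6 by -0.87 (adjusted p = 0.0133). Mxd1 averaged 7.93, 9.16, 9.52, 9.99 and 8.42 and fell by -0.75 (adjusted p = 0.041). Tmigd1 fell by -1.27 (adjusted p = 0.00601) to 7.82, near its day 0 mean of 7.56.

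Fewer genes rose. Cdkl4, a kinase related to cyclin-dependent kinases, went from 4.08, 4.45 and 3.94 to 6.07, 5.83 and 5.39 (1.60, SE 0.26, adjusted p = 0.00473, 3.04-fold) and stood at 7.02 on day 4. Fbn1, which encodes the microfibril protein fibrillin-1, rose by 1.57 on 1 probe set (adjusted p = 0.0097), from 5.61, 5.50 and 5.61 to 7.67, 6.75 and 7.02, while its brightest probe set differed by 0.85 (adjusted p = 0.20). The Fbn1 probe set that passed averaged 7.91 in acetone-treated WT skin, above its day 6 mean of 7.15. Nrcam, a cell adhesion molecule of nerves, rose by 1.18 (adjusted p = 0.0472). Its WT means were 6.45 on day 1 and 7.63 on day 6, against 7.63 on day 0 and 8.26 on day 4. Ngfr, a neurotrophin receptor, rose by 1.02 on 1 dim probe set (adjusted p = 0.0348). It went from 4.09, 3.98 and 4.27 to 5.51, 5.48 and 4.42, with 1 day 6 mouse close to the day 1 range. All 3 tested probe sets of Ngfr were higher on day 6, and the brightest did not pass.

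Of the 29 probe sets that fell, 25 had their highest WT mean on day 1 among the 5 days, and in 21 the day 6 mean was nearer to day 0 than the day 1 mean was. Of the 13 that rose, 11 had their lowest WT mean on day 1, 7 had their highest on day 6, and in 6 the day 6 mean was nearer to day 0 than the day 1 mean was. Both days were used to choose these probe sets, so the counts describe them and test nothing.

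In D6-deficient skin the same comparison passed in 104 probe sets (0.289%), 36 that rose and 68 that fell. Of the 42 WT probe sets, 41 had the same sign there, against 60.8% of all tested, and 20 passed in both genotypes, which is 47.6% of the WT and 19.2% of the D6-deficient set. The groups of the 2 genotypes share no arrays, but the same fit gave both tests the same estimate of spread for each probe set. Passing in one genotype was therefore not independent of passing in the other. Ngfr was the exception in sign, with -0.06 in D6-deficient skin. The difference between the genotypes in the change from day 1 to day 6 passed in 0 probe sets by limma (smallest adjusted p = 1.00), and 1228 had an unadjusted p under 0.05, among them 9 of the 42. Among these 9 the difference had the smallest p for Ngfr (1.07, unadjusted p = 0.000898). The D6-deficient count depended on single mice, being 468 without day 6 replicate 3 and 25 without day 1 replicate 1.

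**Figure D2:**
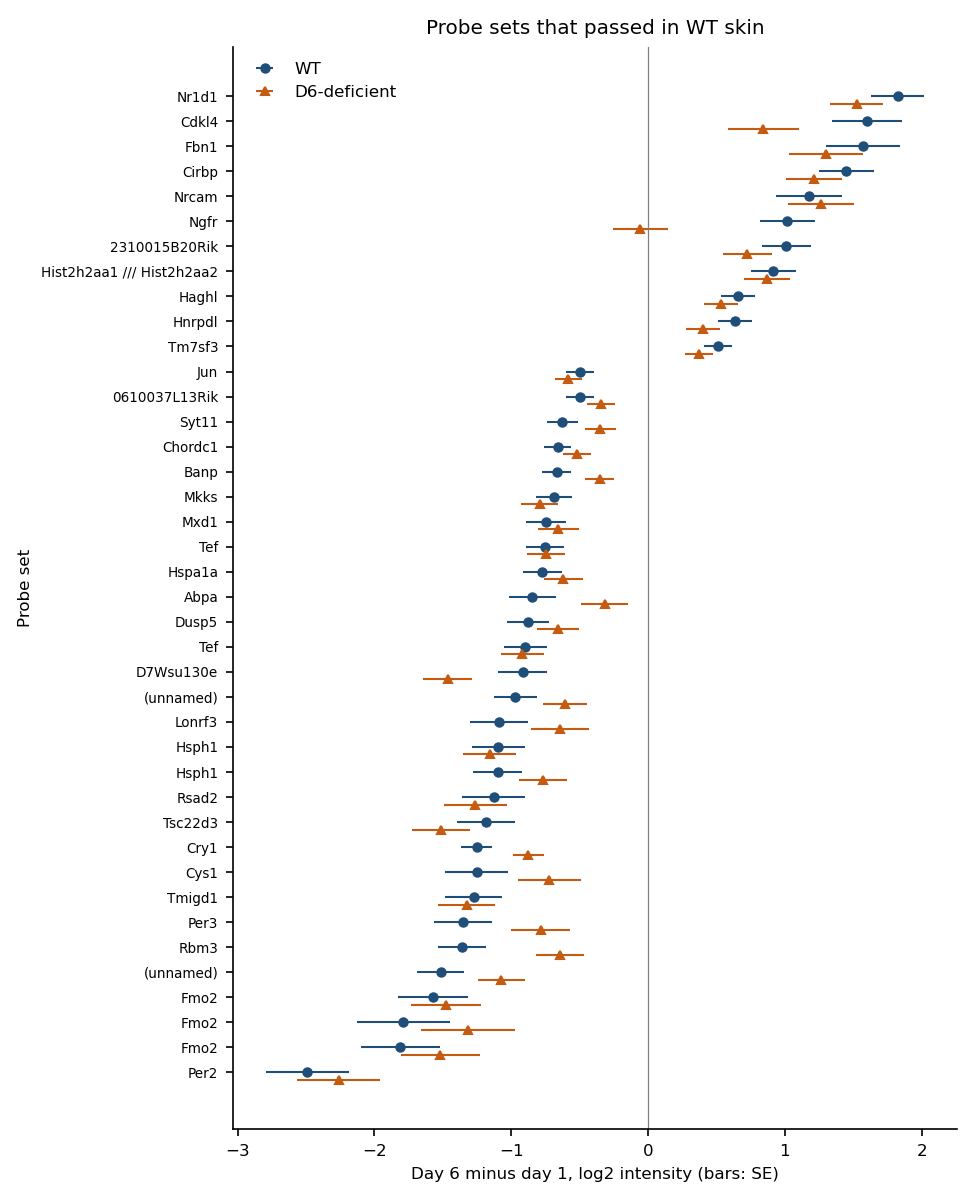
Day 6 minus day 1 on the log2 scale (x axis, bars are SE) for 40 of the 42 probe sets that passed in WT skin (rows, by gene symbol), in WT mice (circles) and D6-deficient mice (triangles). All but Ngfr lie on the same side of 0 in both genotypes.

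Hair follicle genes had the widest differences, those of Krtap8-1, Krtap11-1 and Krt33a being the largest of all probe sets, and none passed. On the list of hair shaft and root sheath keratins and keratin-associated proteins, 36 of 45 members were tested, all 36 were higher on day 6, the median difference was 0.99 and the range 0.01 to 3.22. Krtap8-1, a shaft protein rich in glycine and tyrosine, read 7.65, 4.11 and 5.21 on day 1 and 7.85, 8.72 and 10.07 on day 6, a difference of 3.22 (SE 0.90, adjusted p = 0.22). Krtap11-1 read 7.24, 4.42 and 5.47 and then 7.33, 8.85 and 9.66 (2.90, SE 0.85, adjusted p = 0.26), and Krt33a, a shaft keratin, 7.88, 4.23 and 6.15 and then 7.65, 8.74 and 9.41 (2.51, SE 0.81, adjusted p = 0.35). Mice of the same day differed widely in these genes, and the days of Krt33a overlapped. In D6-deficient skin the list's median was 1.73, and Krtap8-1 and Krtap11-1 rose by 4.31 and 4.25 (adjusted p = 0.034 and 0.026).

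The root sheath keratins of the same list set days 1 and 6 apart from every other day. Krt25, a keratin of the inner root sheath, read 12.42, 9.91 and 12.16 on day 1 and 11.40, 12.80 and 12.72 on day 6, while its means on days 0, 2 and 4 were 3.84, 3.88 and 3.88. Krt71, its partner, read 11.37, 8.80 and 10.98 and then 10.41, 12.05 and 11.80, against means of 5.50, 5.53 and 5.77. In 12 of the 36 members every day 1 and day 6 array of WT skin exceeded every array of days 0, 2 and 4, as it did in 11 of 33 hair cycle signaling genes and 7 of 10 melanocyte genes. Among all 36029 probe sets 284 (0.788%) met this condition, which was chosen after the values were seen. Among D6-deficient arrays the counts were 18, 12 and 6, and 505 (1.4%) of all probe sets. Shh, a signal of growing follicles, averaged 8.79 on day 1 and 9.16 on day 6 and 5.20 to 5.44 on the other days. Between day 1 and day 6 themselves Krt25, Krt71 and Shh differed by 0.81, 1.04 and 0.37 (adjusted p = 0.80, 0.74 and 0.95). The follicle stage of the mice is not given in the sources used here, and the part of hair follicle RNA in the comparisons of day 1 with days 0, 2 and 4 was not tested.

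Day 1 replicate 2 had the lowest values of that day in the hair genes just named. Without it the median of the hair shaft list was 0.57, and without day 1 replicate 1 it was 1.48.

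**Figure D3:**
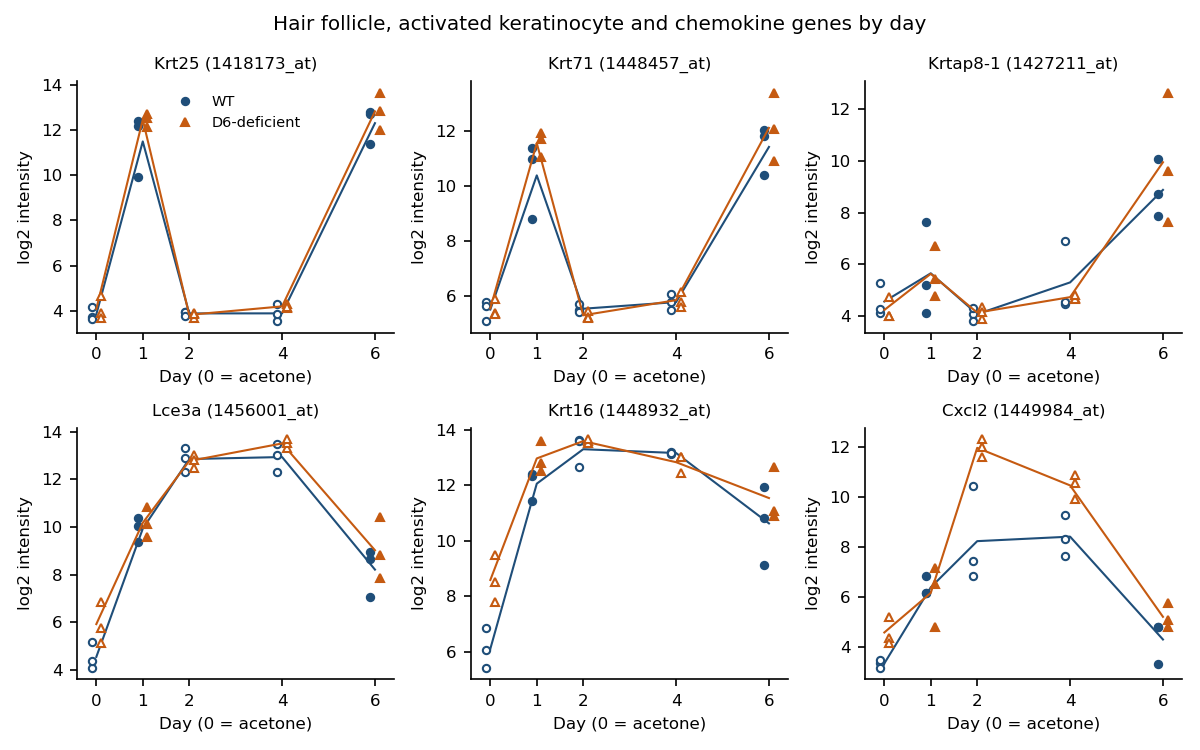
Log2 intensity (y axis) by day (x axis) of Krt25 and Krt71 (root sheath), Krtap8-1 (hair shaft), Lce3a and Krt16 (activated keratinocytes) and Cxcl2 (chemokine). Points are single mice, filled on days 1 and 6, and lines join group means of WT (circles) and D6-deficient mice (triangles); Krt25 is near 4 on days 0, 2 and 4 and near 12 on days 1 and 6 in both genotypes.

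Genes of the activated epidermis were lower on day 6 as a group, again with none passing. Of 42 stress keratin and cornified envelope genes 30 were tested, 28 differences were below 0 and the median was -1.02, with 12 genes in which the days did not overlap, against 12.7% of all probe sets. Lce3a, a late cornified envelope protein of damaged epidermis, read 10.38, 9.36 and 10.05 on day 1 and 7.04, 8.95 and 8.64 on day 6 (-1.72, SE 0.54, adjusted p = 0.33). It averaged 4.55 on day 0, 12.85 on day 2 and 12.94 on day 4, so that day 1 and day 6 lay on either side of a maximum and above acetone-treated skin. Lce3f and Sprr2f differed by -1.56 each (adjusted p = 0.42 and 0.53). Krt16, a keratin of hyperproliferative epidermis, read 12.34, 11.42 and 12.41 and then 9.14, 11.92 and 10.83 (-1.43, adjusted p = 0.52), with 1 day 6 mouse inside the day 1 range and another far below it. Krt17 differed by 0.02 and Sprr1a by -0.08. The median in D6-deficient skin was -1.06. Without WT day 6 replicate 1, the lowest day 6 mouse in Lce3a and Krt16, the median was -0.68.

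Genes of normal epidermis shared the direction to a lesser extent, with 36 of 40 below 0, 0 passing and a median of -0.31. The largest differences were those of Rptn, Abca12 and Ivl, at -1.18, -1.05 and -1.01 (adjusted p = 0.51, 0.42 and 0.43), which encode a cornified envelope protein, a lipid transporter and involucrin. Of 28 EGF receptor ligands and immediate early genes 25 were below 0 and, against 0.0805% of all probe sets, 1 fell. This was Jun, part of the AP-1 factor, from 10.15, 10.01 and 10.06 to 9.68, 9.57 and 9.47 (-0.50, SE 0.10, adjusted p = 0.044). The ligands Epgn, Ereg and Hbegf differed by -1.64, -1.35 and -1.13 with no overlap (adjusted p = 0.30, 0.20 and 0.14). The median of this list, -0.35, was -0.10 without day 1 replicate 1, in which Fos read 11.64 against 9.63 and 9.35 in the other day 1 mice.

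No listed marker of infiltrating cells and no inflammatory chemokine passed, and the 29 inflammatory chemokines differed in both directions, 4 of them lower and 2 higher on day 6 with no overlap between the days (12.7% of all probe sets did not overlap). Of 18 neutrophil genes 0 passed and the median was -0.22. The calgranulins S100a8 and S100a9, which keratinocytes also make, read 12.49 to 13.46 on day 1 and 11.79 to 12.20 on day 6 (-1.05 and -1.29, adjusted p = 0.79 and 0.68). Their day 0 means were 9.04 ± 1.84 and 9.13 ± 1.57 (SD), with WT day 0 replicate 1 reading 11.15 and 10.93. Day 4 means were 14.34 and 14.67. Cxcl2, which attracts neutrophils, read 6.17, 6.18 and 6.84 and then 4.79, 4.80 and 3.33 (-2.09, SE 0.66, adjusted p = 0.33). Ccl12 and Ccl7, monocyte attractants and ligands of D6, differed in the other direction, by 0.95 and 0.78 (adjusted p = 0.64 and 0.58), with 2 of 3 day 6 mice above the day 1 range. Medians for monocyte and macrophage, dendritic cell, T cell, B cell and mast cell markers lay between -0.09 and 0.21, with 0 genes passing.

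Rsad2, an antiviral protein induced by type I interferon, fell on 1 of 3 probe sets, from 5.69, 5.69 and 5.63 to 4.71, 4.63 and 4.29 (-1.13, SE 0.23, adjusted p = 0.044). Its brightest probe set differed by -1.31 (adjusted p = 0.067). The rest of the 33 interferon-induced genes did not pass, and the list median was -0.04. Of the 33 differences, 20 were below 0 and 13 above. Ifit3 differed by -0.97 and Ddx60 by 0.83 (adjusted p = 0.24 and 0.17). Tslp, a keratinocyte cytokine, read 7.30, 7.02 and 7.24 and then 6.14, 5.90 and 6.12 (-1.13, adjusted p = 0.20), all of them below the acetone-treated mean of 7.70. For the lists of cell cycle, collagen and matrix, metalloproteinase, complement, antioxidant, glycolysis, eicosanoid, lipid synthesis, adipocyte, muscle, sebaceous and endothelial genes the median lay between -0.11 and 0.19, with 0 members passing on their brightest probe set. The lists of homeostatic chemokines and of cytokines and their feedback genes had medians of -0.02 each, melanocyte genes 0.32, hair cycle signaling genes 0.04 and the 4 tested red cell genes -0.41, again with 0 passing.

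**Figure D4:**
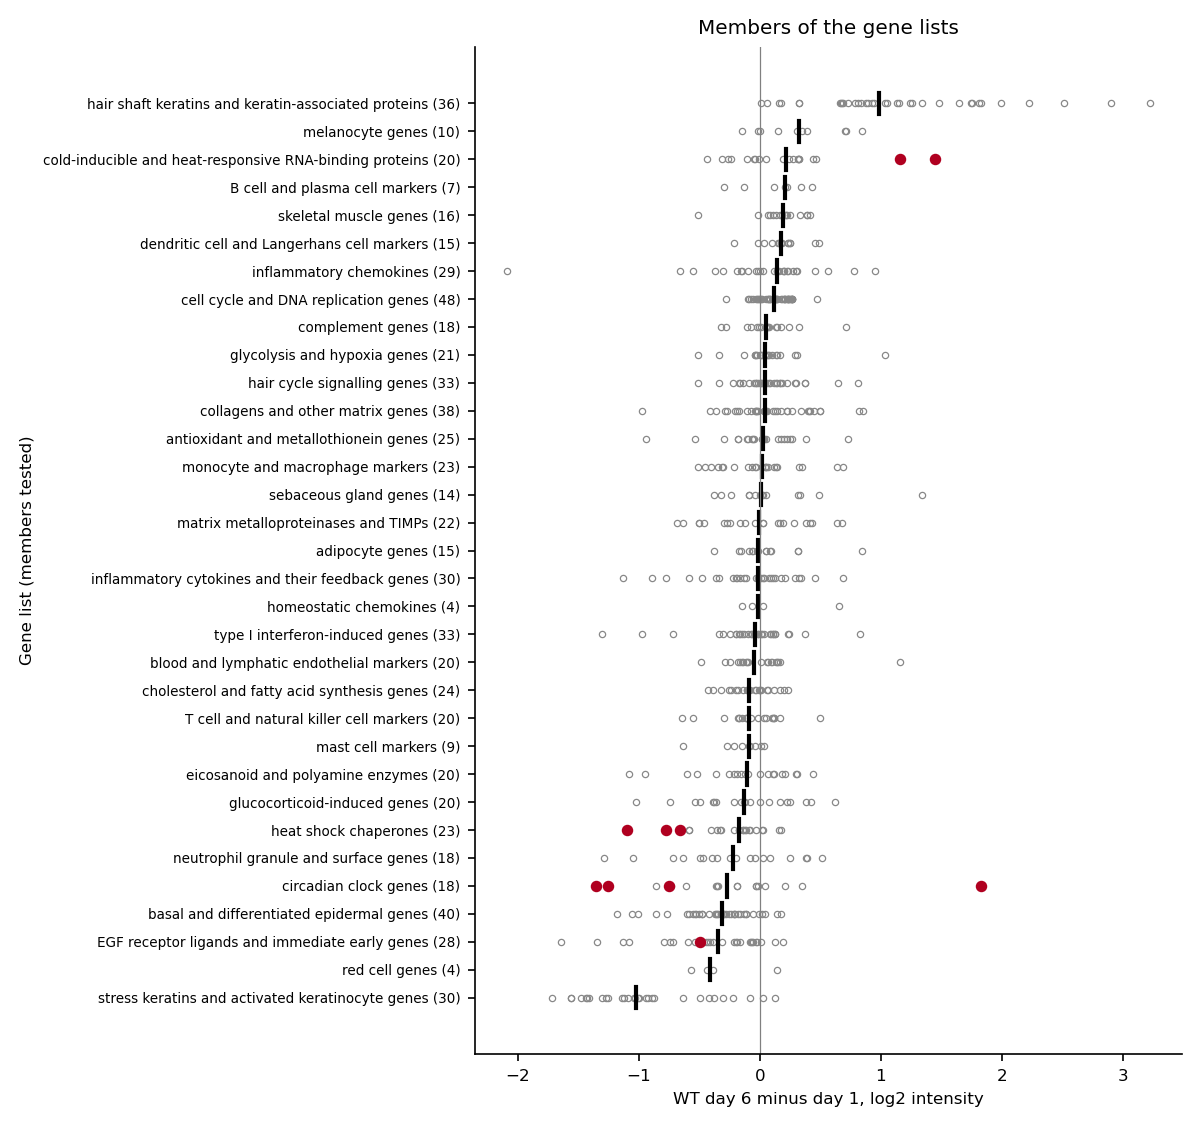
WT day 6 minus day 1 on the log2 scale (x axis) for every tested member of each gene list (rows, members tested in brackets), on its brightest probe set. Filled points passed an adjusted p of 0.05 and black bars are medians; the passing genes lie in the clock, chaperone, RNA-binding and immediate early lists, and the stress keratin and hair shaft lists have the medians farthest from 0.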

How the data were processed

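Back skin RNA of 30 mice, 3 for each genotype and day, was hybridized to Affymetrix mouse whole-genome expression arrays. The authors deposited linear intensity values after RMA, which corrects the background, quantile normalizes the arrays and summarizes the probes of a set, and which tends to narrow differences of dim probe sets. Gene symbols were those of the deposited table. No depth applies to arrays, and their number, 3 for each group, limits the precision (an exact permutation test of 3 against 3 cannot go below 0.10).

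Here log2 of the deposited intensity was taken, 64 control probe sets and the lowest 20% of probe sets by mean were left out, and 36029 of 45037 were tested. limma (3.58.1, in R 4.3.3) fitted 1 mean for each genotype and day over all 30 arrays, with Benjamini-Hochberg adjustment. Python 3.11.15, pandas 2.3.3, numpy 2.4.6 and matplotlib 3.10.9 served for the rest, and the test was checked on simulated data. The labels call the mice biological replicates.

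A probe set passed at an adjusted p under 0.05 and was called when it was also over 3-fold different. Genes to be named were the called genes, the members of each list with the largest differences on the brightest probe set, and the D6 gene. Not all of these list members are given in the text, and those given were picked with their values known. The other genes named were also chosen after their values were seen. Members and lists were chosen with earlier results of these data known. The lists of chaperones, RNA-binding proteins and glucocorticoid-induced genes and the clock and heat shock motifs were added after the values were seen. The result of 1 gene is not reported here. Promoters came from RefSeq (GRCm38.p6, 32851 windows). Motif shares, intended for called genes, were taken over the genes that passed because only 5 probe sets were called. Alternatives changed the fold threshold, the filter, the centering, the arrays in the fit, an intensity trend, the set of hybridization controls, the replicate block, single arrays and the test. Hybridization controls fell into a high set of 17 arrays and a low set of 13, and both days held arrays of each.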

Additional observations from a re-analysis of the deposited data

Results flagged for a closer look

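Alox8, which encodes a lipoxygenase of the epidermis, differed between the days in opposite directions in the 2 genotypes. In WT mice it read 7.71, 7.005 and 7.92 on day 1 and 6.56, 6.68 and 6.54 on day 6, a difference of -0.95 (SE 0.74, adjusted p = 0.89 by limma). In D6-deficient mice it read 6.94, 6.82 and 6.45 and then 6.96, 8.31 and 7.52, a difference of 0.86 (adjusted p = 0.71). Neither pair of days overlapped, but the WT days did not overlap in 12.7% of all probe sets either. In D6-deficient mice the highest day 1 value, 6.94, lay just below the lowest day 6 value, 6.96. The WT change minus the D6-deficient change was -1.81 (SE 1.05, unadjusted p = 0.097, adjusted p = 1.00), so the difference between the genotypes did not pass its test. Groups of 3 arrays were not searched for outlying arrays.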

How the results depend on the processing

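The 5 probe sets called in WT skin became 23 at a 2-fold threshold, 42 with no fold threshold, 0 by the methods' t-test after adjustment and 17 by that test unadjusted, and ranged from 3 (without day 6 replicate 2) to 9 (without day 1 replicate 1) when single arrays were left out. The 42 that passed at any fold became 6 when only the 6 arrays were fitted, 0 by the methods' t-test after adjustment and 2446 unadjusted, and ranged from 17 (without day 1 replicate 3) to 35. They were 38 to 53 under the other filters, centering, trend and hybridization control settings and 31 with the 15 WT arrays. In D6-deficient skin the 8 called ranged from 3 to 68 and the 104 that passed from 25 to 468 when single arrays were left out. The difference between genotypes stayed at 0 except for 1 without WT day 6 replicate 3. With a replicate block, 5 were called and 39 passed in WT skin, 7 were called and 99 passed in D6-deficient skin, and the difference between genotypes passed in 0. Same-numbered WT arrays deviated with correlations of -0.18, -0.35 and -0.04, so the numbers were not taken as a pairing.

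Of the 42, Cirbp, Cry1, Nr1d1 and Per2 passed in every limma alternative, and none changed direction. Apart from the fit of the 6 arrays, 9 passed in every limma alternative that tested them. With the lowest 40% left out, only 40 of the 42 were tested. Differences that changed sign when single arrays were left out ranged from -0.178 to 0.135, -0.226 to 0.198 and -0.112 to 0.317 for the 3 probe sets of Ccbp2, -0.142 to 0.0469 for Ccl25, -0.0684 to 0.504 for Ccnb1, -0.24 to 1.09 for Cd209a, -0.0189 to 1.13 for Msx2, -0.0891 to 0.917 for Myh4, -0.0789 to 1.36 for Tyr and -0.0119 to 0.472 for Xcr1. The cause was not tested. Dim probe sets limit what can be read, and 9008 were below the filter.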
